A study of Mus musculus with 29 samples.

Results

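Immediate early genes, here the NR4A orphan nuclear receptors and AP-1, EGR and ATF transcription factors that a stimulus switches on first, were followed through brown adipose tissue (BAT) and gastrocnemius muscle (SkM) of mice under calorie restriction (CR), treadmill exercise training (EX) or both (CREX). The members are the rows of the count table with the symbols Nr4a1, Nr4a2, Nr4a3, Fos, Fosb, Jun, Junb, Egr1, Egr2 and Atf3, all 10 of which were found among 24770 symbols. The rule takes them by symbol.

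The mice were male wild-type C57BL/6J, 8 weeks old at the start of an intervention of 8 weeks. The control group ate freely and did not train. The CR group had its food lowered in weekly steps of 10% to 70% of free intake. The EX group ate freely and ran on a treadmill at 12 m per min and an incline of 5 degrees for 1 h on 5 days a week, and the CREX group had both interventions. Every mouse was fasted for 6 h before harvest, the controls included, and the trained mice were harvested 24 h after the last run. BAT gave 3 control, 4 CR, 4 EX and 4 CREX libraries, and SkM gave 4 control, 3 CR, 4 EX and 3 CREX libraries, 29 in all. The sources do not say how the libraries of a group were spread over cages or harvest times, so p-values measure the spread between these libraries.

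Immediate early genes are held ready at their promoters and are transcribed within minutes of a signal such as cAMP, calcium, growth factors, stretch or stress, through factors already present in the cell, chiefly CREB and the serum response factor with its partners. Their transcripts are short-lived. In BAT, noradrenaline acting through beta-adrenergic receptors and cAMP is a classic inducer of the NR4A receptors. In muscle, contraction and adrenergic signals induce NR4A genes, which are known regulators of glucose and lipid use.

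The cAMP response half-site bound by CREB reads TGACG on one strand and CGTCA on the other, and the promoters of 4 members are shown with it marked. Nr4a1 and Atf3 are shown because they were lower in BAT under CR. Junb is shown because it was lower under CR without training in both tissues, and Nr4a3 because it ranged most widely in SkM. Each sequence is the 250 bases before the RefSeq transcription start (GRCm38.p6), written 5′ to 3′ on the strand of the gene, with TGACG or CGTCA in capitals.
Nr4a1, chr15:101266596-101266845, + strand: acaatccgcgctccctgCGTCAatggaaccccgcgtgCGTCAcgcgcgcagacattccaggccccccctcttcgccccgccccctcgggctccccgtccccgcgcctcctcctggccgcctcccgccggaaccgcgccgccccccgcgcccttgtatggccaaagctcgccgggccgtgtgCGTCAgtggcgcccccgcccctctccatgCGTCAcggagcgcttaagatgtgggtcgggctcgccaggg
Nr4a3, chr4:48045055-48045304, + strand: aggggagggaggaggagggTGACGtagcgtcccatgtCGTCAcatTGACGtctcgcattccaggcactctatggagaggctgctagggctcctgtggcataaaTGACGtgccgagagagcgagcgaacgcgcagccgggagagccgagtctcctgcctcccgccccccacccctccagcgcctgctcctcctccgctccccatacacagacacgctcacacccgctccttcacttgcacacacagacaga
Junb, chr8:84978749-84978998, − strand: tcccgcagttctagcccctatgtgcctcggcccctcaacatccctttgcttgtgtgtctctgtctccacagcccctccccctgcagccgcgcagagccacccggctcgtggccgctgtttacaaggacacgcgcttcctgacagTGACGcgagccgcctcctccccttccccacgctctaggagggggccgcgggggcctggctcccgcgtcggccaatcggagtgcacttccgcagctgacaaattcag
Atf3, chr1:191183334-191183583, − strand: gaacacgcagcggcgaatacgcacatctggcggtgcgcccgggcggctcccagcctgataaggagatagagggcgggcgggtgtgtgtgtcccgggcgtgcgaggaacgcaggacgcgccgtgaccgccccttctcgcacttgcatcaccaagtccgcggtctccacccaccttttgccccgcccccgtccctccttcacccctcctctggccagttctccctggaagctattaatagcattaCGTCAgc

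Nr4a1 and Nr4a3 each held 4 copies of the half-site in these stretches, while Junb and Atf3 held 1 each. Over windows from 250 bases before to 50 bases after the start, 9 members had a RefSeq sequence that was used here, and 8 of the 9 held TGACG on either strand, Jun being the exception, against 23.0% of the 27025 genes with such a window. The full palindrome TGACGTCA was in none of the 9 (2.03% of all genes). The CArG box, the motif of the serum response factor, was in Egr2 alone (1.81%). Egr2 had several windows and counted as holding a motif if any of them did, while the other members had a single window each. Sites farther upstream than 250 bases were not searched. Of the motifs of the members' own products, the AP-1 site TGANTCA was in 0 of 9 (8.97%), the NR4A monomer site AAAGGTCA in 0 of 9 (1.7%), and the EGR site GCGNGGGCG, searched on both strands as all of these were, in 3 of 9, Nr4a1, Nr4a2 and Fosb (6.27%). TGACGTCA contains TGACG, so those searches overlap. A match is a run of letters and not a measured binding site.

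The libraries held 21047242 to 24919377 counts in BAT and 23050918 to 23425284 in SkM, so that 3 counts stand at 0.120 to 0.143 CPM (counts scaled to a common library total). BAT carried its defining genes, with the uncoupling protein Ucp1 at 1373 to 4749.8 CPM, and SkM carried its own, with the fast myosin Myh4 at 18193 to 48990.2 CPM and Ucp1 at 0 to 0.138 CPM. Muscle RNA was also present in BAT to a widely varying degree, the 10 muscle fibre markers summing to 3.22 to 631 CPM in the control, 18.4 to 1344 in the CR, 6.48 to 3706 in the EX and 954 to 5836 CPM in the CREX libraries. CPM values in the following text are scaled by the TMM method within a tissue.

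Compared per kilobase of exon, Jun, the core AP-1 subunit, was the most abundant member in BAT, with a median of 7.46 CPM per kb over the 15 libraries. Junb followed at 2.83, Nr4a2 at 2.37, Nr4a1 at 2.13 and Nr4a3 at 0.855 CPM per kb. Egr1, Atf3, Fos, Egr2 and Fosb were lower, from 0.608 down to 0.0355 CPM per kb. In SkM, Nr4a1 led with a median of 46.8 CPM per kb over the 14 libraries, followed by Jun at 25.5, Junb at 3.40, Atf3 at 1.75 and Fos at 1.18 CPM per kb. Egr1, Nr4a3, Egr2, Nr4a2 and Fosb lay between 0.750 and 0.0618 CPM per kb. Fosb reached only 1 to 62 counts per BAT library and Egr2 3 to 43, so their values carry large counting error. The count of Egr2 was fractional in 28 of 29 libraries, which marks reads that were divided between genes, and its level is uncertain to that extent.

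With all libraries, the members varied more within groups than the median gene did. The within-group standard deviation of log2 CPM was 1.48 for Nr4a1 in BAT, 98.7% of the 13890 genes being less variable, and 1.83 for Egr1 and 1.82 for Nr4a3 in SkM, where the median gene had 0.227. The least variable members were Junb in BAT (SD 0.31) and Egr2 in SkM (SD 0.38), still above the median gene. Without the BAT library control replicate 2 the SD was 1.37 for Nr4a1 and 0.18 for Junb in BAT, where the median gene had 0.19. Without the SkM library CREX replicate 3 it was 1.23 for Egr1, 0.62 for Nr4a3 and 0.20 for Nr4a1 in SkM, where the median gene had 0.22, so that Junb in BAT and Nr4a1 in SkM were then below the median gene.

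A single library stood at the top for the whole set in BAT. The library labelled control replicate 2 was the highest of the 15 BAT libraries for all 10 members, while 7.34% of all genes were highest there. It held 466 CPM of Nr4a1 against 211 in the next library, 80.2 CPM of Nr4a2 against 26.9, and 42.3 CPM of Egr1 against 10.4. Its Fos (3.30 CPM against 1.80), Jun (66.9 against 34.9) and Junb (17.7 against 10.8) were less far ahead. Of 38 other immediate early genes kept by the filter, 16 were also highest there. Its summed brown adipocyte markers, at 16192 CPM, were the highest of the BAT libraries, its muscle fibre markers summed to 52.4 CPM, and their part in these values was not tested.

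**Figure D1:**
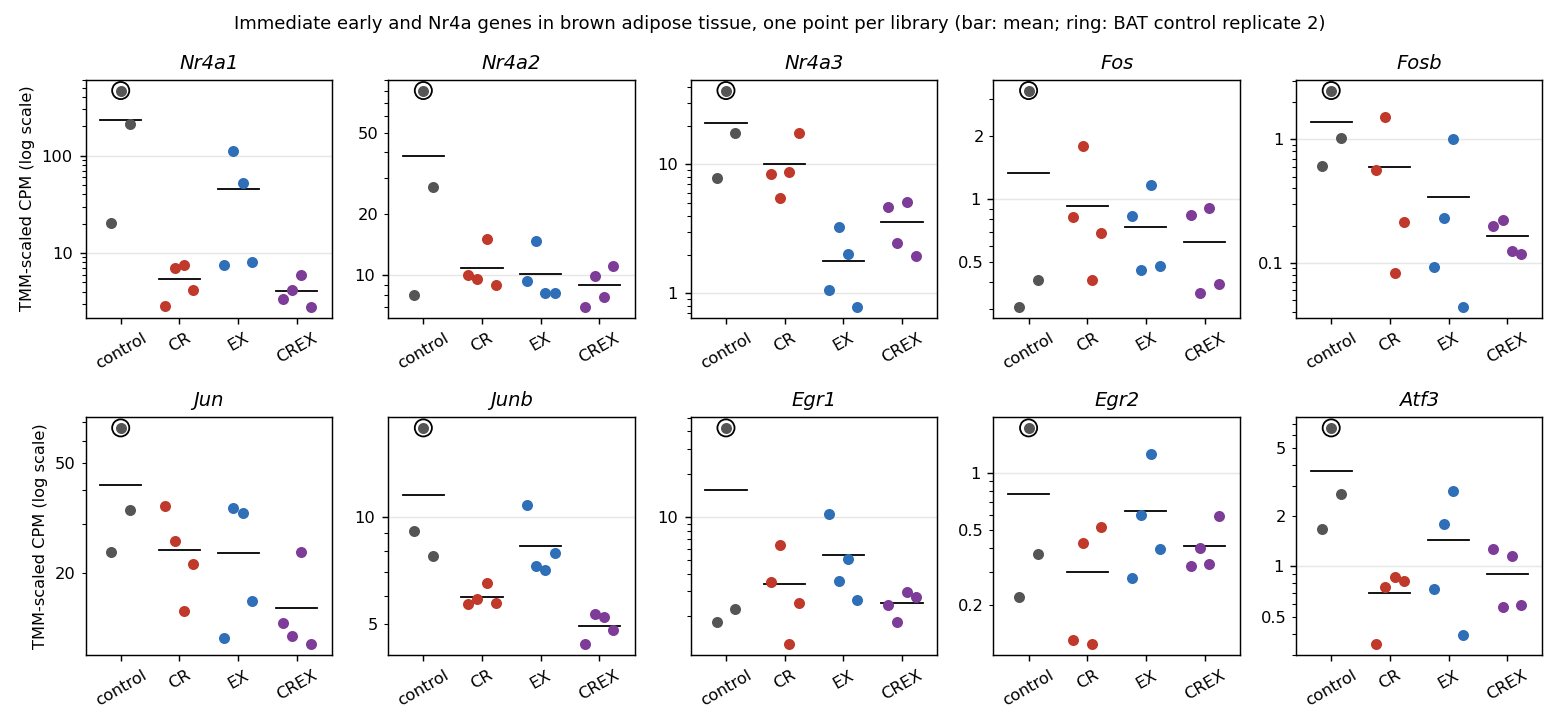
TMM-scaled CPM (log axis) of the 10 members in each of the 15 BAT libraries, by group. Points are libraries and bars are group means. The ringed library, control replicate 2, is the highest point in every panel, and Nr4a1 spans 2.80 to 466 CPM.

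In SkM, the library labelled CREX replicate 3 stood apart. It was the highest of the 14 SkM libraries for 6 members, while 12.3% of all genes were highest there. Nr4a3 was at 264 CPM in it and at 0.768 to 5.20 CPM in the other 13 libraries. Egr1 reached 125 CPM against 42.8 in the next library, Fosb 11.9 against 1.09, Nr4a1 755 against 235, and Nr4a2 9.44 against 3.21. Junb, at 23.5 CPM, was barely above the next library at 21.2. The rest did not follow: Jun was at its lowest there, at 42.4 CPM, and Egr2 at 0.674 CPM was close to its own minimum of 0.657. Fos (3.61 CPM) and Atf3 (5.55 CPM) were inside the range of the other libraries. Of 39 other immediate early genes, 15 were highest in this library. Its summed endothelial markers, at 118 CPM, were the lowest of the SkM libraries, and their part in these values was not tested. Whether the 2 libraries had a different handling or time of harvest is not given in the sources used here, and the main results that rest on either are given with and without it.

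**Figure D2:**
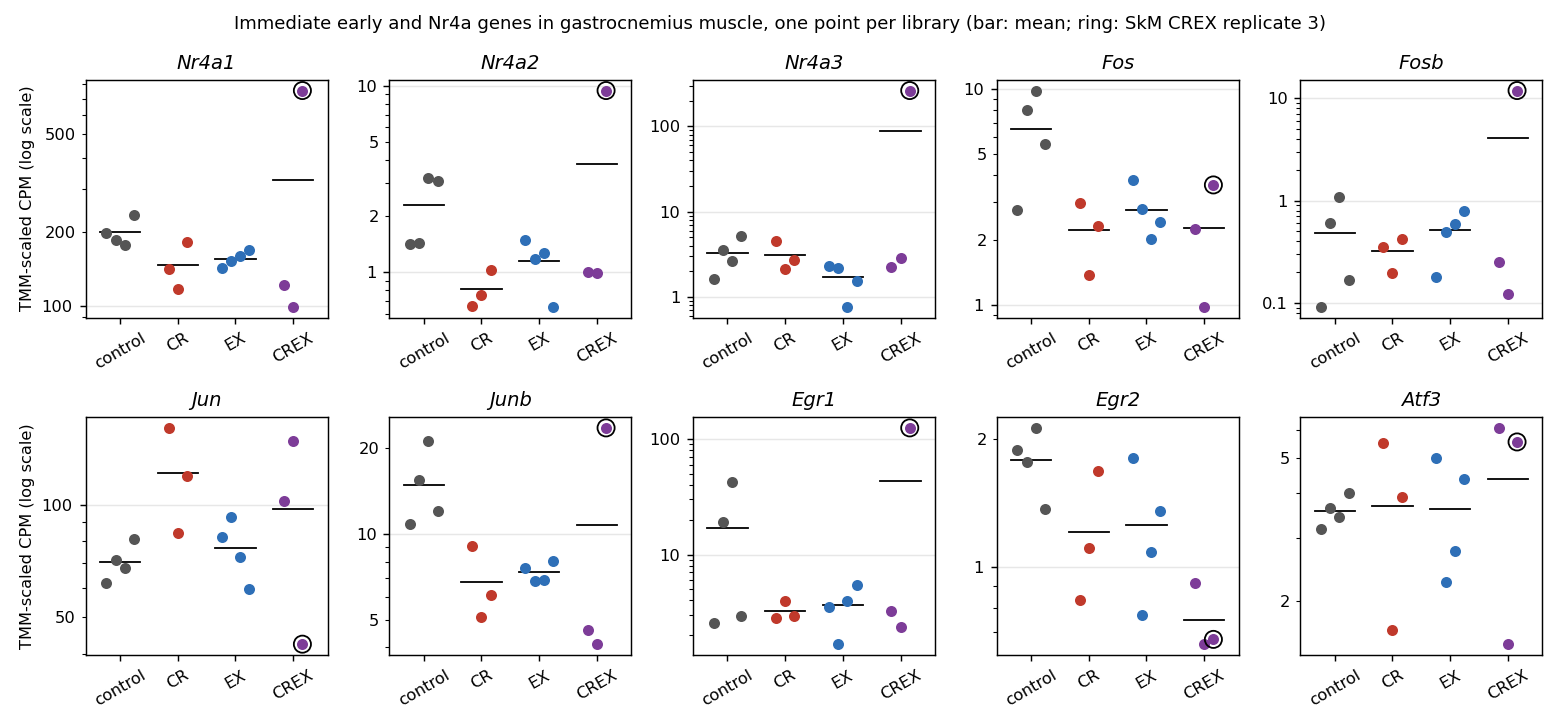
TMM-scaled CPM (log axis) of the 10 members in each of the 14 SkM libraries, by group. Points are libraries and bars are group means. The ringed library, CREX replicate 3, is at 264 CPM of Nr4a3 where no other library exceeds 5.20 CPM, and it is the lowest point for Jun.

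The first comparison asked what CR changed in sedentary mice. In BAT, all 10 members were lower on average in the CR than in the control group, and 3 of them passed the test and fell, against 6.86% of the 13323 genes tested that were called lower and 10.7% called in either direction. A gene was called at an edgeR adjusted p under 0.05 with a fold change above 1.5. Nr4a1 (chromosome 15, 101254269 to 101274795), Atf3 (chromosome 1, 191170296 to 191218039) and Junb (chromosome 8, 84974484 to 84978718) fell, and for these 3 the groups did not overlap, as was the case in this direction for 16.8% of all genes. The median log2 fold change of the 10 members was -1.32, and that of all genes tested 0.0045. In whole tissue, less RNA per cell and fewer cells of a type cannot be told apart.

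Nr4a1, which encodes the orphan receptor NUR77, was at 20.5, 466 and 211 CPM in the control libraries and at 2.86, 6.95, 7.46 and 4.13 CPM in the CR libraries. Every control library was above every CR library, although the controls themselves spanned a 22.8-fold range. The fitted log2 difference was -5.44 with a standard error (SE) of 1.15 and an edgeR adjusted p of 0.0302. Over the 4 groups the median Nr4a1 level in BAT ran from 211 CPM in control through 30.0 in EX and 5.54 in CR to 3.78 CPM in CREX. The ranges of control and EX overlapped, those of CR and CREX overlapped, and the lowest EX library, at 7.57 CPM, was just above the highest CR library.

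The other NR4A receptors followed less clearly. Nr4a2 (NURR1) was at 8.04, 80.2 and 26.9 CPM in control and at 10.03, 9.60, 15.1 and 8.94 CPM in CR, so that the groups overlapped (log2 ratio -1.81, SE 0.78, edgeR adjusted p = 0.167). Nr4a3 (NOR1) was at 7.91, 37.4 and 17.6 CPM in control and at 8.51, 5.53, 8.69 and 17.5 CPM in CR, again overlapping (-1.06, SE 0.64, edgeR adjusted p = 0.299).

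Atf3, a stress-induced member of the ATF/CREB family, was at 1.66, 6.60 and 2.68 CPM in control and at 0.347, 0.757, 0.865 and 0.816 CPM in CR (log2 ratio -2.38, SE 0.51, edgeR adjusted p = 0.0161). Every CR library was below every control library. Junb, an AP-1 subunit that can restrain Jun, was at 9.09, 17.7 and 7.76 CPM in control and at 5.69, 5.87, 6.51 and 5.72 CPM in CR (-0.95, SE 0.27, edgeR adjusted p = 0.0411). The CR libraries were tightly grouped and all lay below the lowest control. Of the other AP-1 subunits, Fos (-0.55), Fosb (-1.25) and Jun (-0.77), and of the zinc finger factors, Egr1 (-2.20) and Egr2 (-1.38), had negative log2 fold changes whose edgeR adjusted p lay between 0.251 and 0.716.

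These 3 calls rested on few libraries. Nr4a1 was called with control replicate 1 left out (edgeR adjusted p = 0.0063) and with no other library left out, the adjusted p being 0.0830, 0.0726, 0.0579 and 0.0894 without CR replicates 1 to 4, 0.0772 without control replicate 2 and 0.0736 without control replicate 3. Its log2 fold change stayed between -5.98 and -4.44. With a library left out, Atf3 was lost only without CR replicate 2 (edgeR adjusted p = 0.0540). Junb was lost without any of the CR libraries (0.0976, 0.107, 0.0712 and 0.0948 for CR replicates 1 to 4), and without control replicate 2 its log2 fold change was -0.50, under the fold minimum (edgeR adjusted p = 0.0417). Without control replicate 2, Atf3 was the single member called and 8 of 10 members were lower, Egr2 among them with a log2 fold change of only -0.0004. The signs of Fos (1.34) and Egr1 (0.72) turned positive, neither passing the test.

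With the muscle marker score as a covariate, Atf3 was called (edgeR adjusted p = 0.0397) and Nr4a1 (0.0816) and Junb (0.0641) were not. With no filter on low counts, Nr4a1 was called (0.0408) and Atf3 (0.0503) and Junb (0.105) were not. The muscle creatine kinase Ckm was at 84.9, 6.28 and 0.330 CPM in control replicates 1 to 3, which held 20.5, 466 and 211 CPM of Nr4a1. Markers of other cell types moved with the groups. The 6 fibroblast markers summed to 269 to 323 CPM in control and 154 to 189 CPM in CR, the 7 endothelial markers to 387 to 417 and 262 to 334 CPM, the 6 smooth muscle and pericyte markers to 302 to 345 and 209 to 243 CPM, and the 7 macrophage markers to 68.9 to 74.8 and 35.6 to 60.6 CPM. The brown adipocyte markers (14390 to 16192 and 13214 to 13981 CPM), the T and B cell markers (2.19 to 3.02 and 0.284 to 0.859 CPM) and the neutrophil markers (0.219 to 0.454 and 0 to 0.206 CPM) were lower in CR without overlap too. The T and B cell and the neutrophil list each had 1 marker at 0 in CR, and the part of these lists in the result was not tested.

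**Figure D3:**
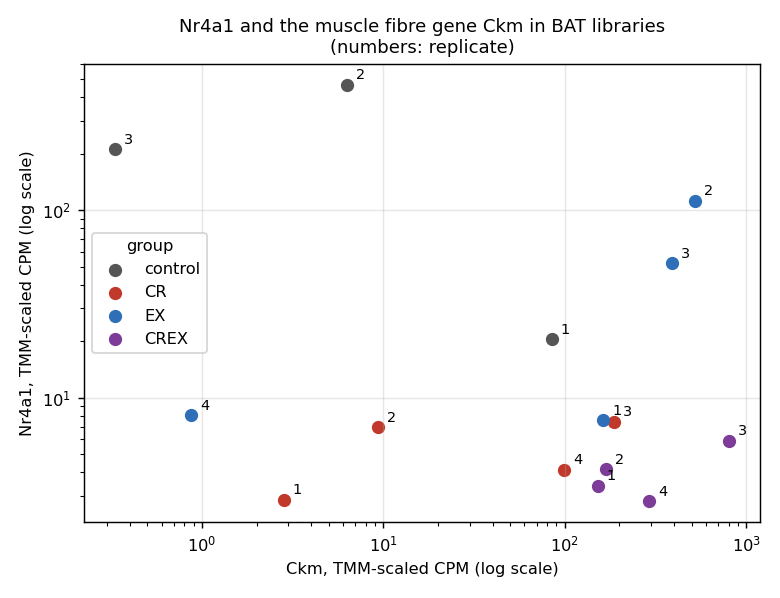
Nr4a1 against the muscle fibre gene Ckm in the 15 BAT libraries, both as TMM-scaled CPM on log axes, coloured by group and numbered by replicate. Control replicate 3 has the least Ckm, 0.330 CPM, and 211 CPM of Nr4a1, while CREX replicate 3 has the most Ckm, 806 CPM, and 5.90 CPM of Nr4a1. EX replicates 2 and 3 have 524 and 391 CPM of Ckm with 112 and 51.9 CPM of Nr4a1. EX replicates 1 and 4 have 163 and 0.875 CPM of Ckm with 7.57 and 8.05 CPM of Nr4a1.

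The same question was asked in trained mice by comparing CREX with EX. In BAT, 8 members were tested, Fosb and Egr2 falling under the filter on low counts, and 1 was called, lower, against 2.63% of 13251 genes called lower and 4.48% in either direction. Junb fell from 10.8, 7.27, 7.09 and 7.92 CPM in EX to 4.39, 5.32, 5.24 and 4.82 CPM in CREX (log2 ratio -0.75, SE 0.15, edgeR adjusted p = 0.0168). No CREX library reached the lowest EX library, as was the case for 8.87% of all genes. The call was lost without CREX replicate 1 (edgeR adjusted p = 0.0520) or CREX replicate 4 (0.0516), and without EX replicate 1 the log2 fold change of -0.58 missed the fold minimum.

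Nr4a1 was at 7.57, 112, 51.9 and 8.05 CPM in EX and at 3.39, 4.17, 5.90 and 2.80 CPM in CREX. The groups did not overlap, yet the EX libraries were split between a pair above 50 and a pair near 8 CPM. The higher pair, EX replicates 2 and 3, held 524 and 391 CPM of Ckm, and EX replicates 1 and 4 held 163 and 0.875 CPM. The log2 fold change of Nr4a1 was -3.48 (SE 1.04, edgeR adjusted p = 0.101). Nr4a1 passed with the muscle score as a covariate (edgeR adjusted p = 0.0358) and with DESeq2 (DESeq2 adjusted p = 0.0023). Egr1, a zinc finger factor induced by growth factors, was at 10.4, 3.57, 5.06 and 2.63 CPM in EX and at 2.39, 1.82, 2.97 and 2.72 CPM in CREX, overlapping (-1.13, SE 0.41, edgeR adjusted p = 0.134, DESeq2 adjusted p = 0.0379). Nr4a3 alone had a positive sign (0.98, SE 0.49, edgeR adjusted p = 0.256). Summed muscle fibre markers were at 6.48 to 3706 CPM in EX and 954 to 5836 CPM in CREX. Fibroblast markers (297 to 1051 and 180 to 200 CPM), smooth muscle and pericyte markers (269 to 323 and 199 to 256 CPM) and T and B cell markers (1.33 to 2.51 and 0.289 to 1.02 CPM) were lower in CREX without overlap, and beyond the muscle covariate their part was not tested.

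The effect of training was compared with the controls and, under restriction, between CREX and CR. In BAT of freely fed mice, edgeR called none of the 10 members and none of 13407 genes (0%). With edgeR, 1 member and 7.25% of genes had an unadjusted p under 0.05, and DESeq2 called 1 member and 36 of 21917 genes. The member was Nr4a3 (chromosome 4, 48045153 to 48086447) in both cases, which was at 7.91, 37.4 and 17.6 CPM in control and at 1.06, 3.29, 2.02 and 0.788 CPM in EX. The highest EX library was below the lowest control, a gap in this direction that 4.96% of all genes showed. Its log2 fold change of -3.53 (SE 0.72, unadjusted p = 0.0033 from edgeR's test across all genes) had an edgeR adjusted p of 0.401. DESeq2 gave an adjusted p of 0.0013. Without control replicate 2 the value was -2.82. By summed CPM, endothelial markers alone among the marker lists were lower in EX without overlap (387 to 417 CPM in control, 313 to 382 CPM in EX). By mean log2(CPM + 1), brown adipocyte markers were lower without overlap too (8.74 to 9.06 in control, 8.53 to 8.67 in EX). Macrophage markers were higher by that measure (3.108 to 3.196 in control, 3.200 to 3.811 in EX). Muscle fibre markers summed to 3.22 to 631 CPM in control and 6.48 to 3706 CPM in EX. With the muscle score as a covariate Nr4a3 had -3.73 (edgeR adjusted p = 0.532), and beyond that the part of these lists was not tested.

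Between CREX and CR in BAT, edgeR called none of 8 members tested, and 1 of 13112 genes (0.00763%). Nr4a3 was lower once more, at 4.67, 2.48, 5.12 and 1.93 CPM in CREX against 8.51, 5.53, 8.69 and 17.5 CPM in CR, without overlap, which 3.06% of all genes showed in this direction (-1.50, SE 0.44, edgeR adjusted p = 0.522, DESeq2 adjusted p = 0.0124). In both training comparisons in BAT, every trained library held less Nr4a3 than every sedentary library of the same diet. Muscle fibre markers summed to 18.4 to 1344 CPM in CR and 954 to 5836 CPM in CREX. With the muscle score as a covariate Nr4a3 had -1.96 between CREX and CR (edgeR adjusted p = 0.9995). Junb was the other member with an unadjusted p under 0.05, as 7.63% of genes had (-0.27, SE 0.11, edgeR adjusted p = 0.643).

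In SkM, CR moved the set in both directions. Of the 10 members, 3 fell and 1 rose, against 5.32% of 13173 genes called lower, 4.27% called higher and 9.6% in either direction. Nr4a2 (chromosome 2, 57106830 to 57124003), Fos (chromosome 12, 85473890 to 85477273) and Junb were lower in the CR than in the control group, and Jun (chromosome 4, 95049034 to 95052222) was higher. The median log2 fold change of the members was -0.56, and that of all genes 0.0050.

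Nr4a2 was at 1.43, 1.44, 3.21 and 3.08 CPM in the control and at 0.658, 0.751 and 1.03 CPM in the CR libraries (log2 ratio -1.48, SE 0.36, edgeR adjusted p = 0.0235). The groups did not overlap, but the level was low, the counts in SkM starting at 14. Nr4a1, by contrast the most abundant member in muscle, was at 199, 186, 178 and 235 CPM in control and at 141, 117 and 183 CPM in CR, overlapping (-0.43, SE 0.17, edgeR adjusted p = 0.108). Nr4a3 had a log2 fold change of -0.06 (SE 0.37, edgeR adjusted p = 0.933).

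The AP-1 subunits parted. Fos was at 2.76, 8.05, 9.86 and 5.57 CPM in control and at 2.98, 1.38 and 2.33 CPM in CR (-1.55, SE 0.41, edgeR adjusted p = 0.0321), control replicate 1 lying inside the CR range. Junb was at 10.8, 15.5, 21.2 and 12.1 CPM in control and at 9.08, 5.10 and 6.11 CPM in CR (-1.13, SE 0.26, edgeR adjusted p = 0.0172), with every CR library lower. Jun was at 61.8, 71.2, 67.7 and 80.8 CPM in control and at 160.4, 84.3 and 119.6 CPM in CR (0.80, SE 0.19, edgeR adjusted p = 0.0233), with every CR library higher. Non-overlapping groups were found in 14.2% of all genes in the lower and 13.3% in the higher direction. Fosb (-0.57) had an edgeR adjusted p of 0.633.

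Egr1 was split within the controls, at 2.53, 19.3, 42.8 and 2.91 CPM, against 2.81, 3.99 and 2.94 CPM in CR. A pair of control libraries was far above every CR library and the other pair was not, and the log2 fold change of -2.37 (SE 1.02) had an edgeR adjusted p of 0.172. Egr2, which acts in Schwann cell myelination among other roles, had -0.55 (edgeR adjusted p = 0.208), and Atf3 0.06 (edgeR adjusted p = 0.933).

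These calls too depended on single libraries. Nr4a2 was lost without CR replicate 2 (edgeR adjusted p = 0.0719), control replicate 3 (0.0692) or control replicate 4 (0.0573). Junb was lost without CR replicate 2 (0.0612) or CR replicate 3 (0.0554). Fos was called without control replicate 1 (0.0062) and with no other library left out, the edgeR adjusted p being 0.0707, 0.106 and 0.0880 without CR replicates 1 to 3 and 0.0783, 0.0821 and 0.0579 without control replicates 2 to 4. Jun was called without CR replicate 2 (0.0053) or control replicate 4 (0.0346), while without CR replicate 1 its log2 fold change of 0.53 missed the fold minimum and without CR replicate 3 or control replicates 1, 2 or 3 the edgeR adjusted p was 0.0503, 0.0545, 0.0668 and 0.0730. Nr4a1 was called without CR replicate 3 (-0.62, edgeR adjusted p = 0.0390). In 1 fit on all SkM groups, which shares the spread of CREX replicate 3, Fos alone was called (0.0364), and with no filter on low counts Nr4a2 (0.0062) and Jun (0.0152) were called. Fibroblast markers summed to 322 to 412 CPM in control and 233 to 293 CPM in CR, endothelial markers to 262 to 335 and 169 to 213 CPM, and brown adipocyte markers, 1 of them at 0 in each group, to 567 to 628 and 435 to 477 CPM. In the other direction, muscle fibre markers summed to 106523 to 118625 CPM in control and 128766 to 178651 CPM in CR, and satellite cell markers to 18.8 to 24.3 and 28.9 to 31.1 CPM. Their part in these values was not tested.

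**Figure D4:**
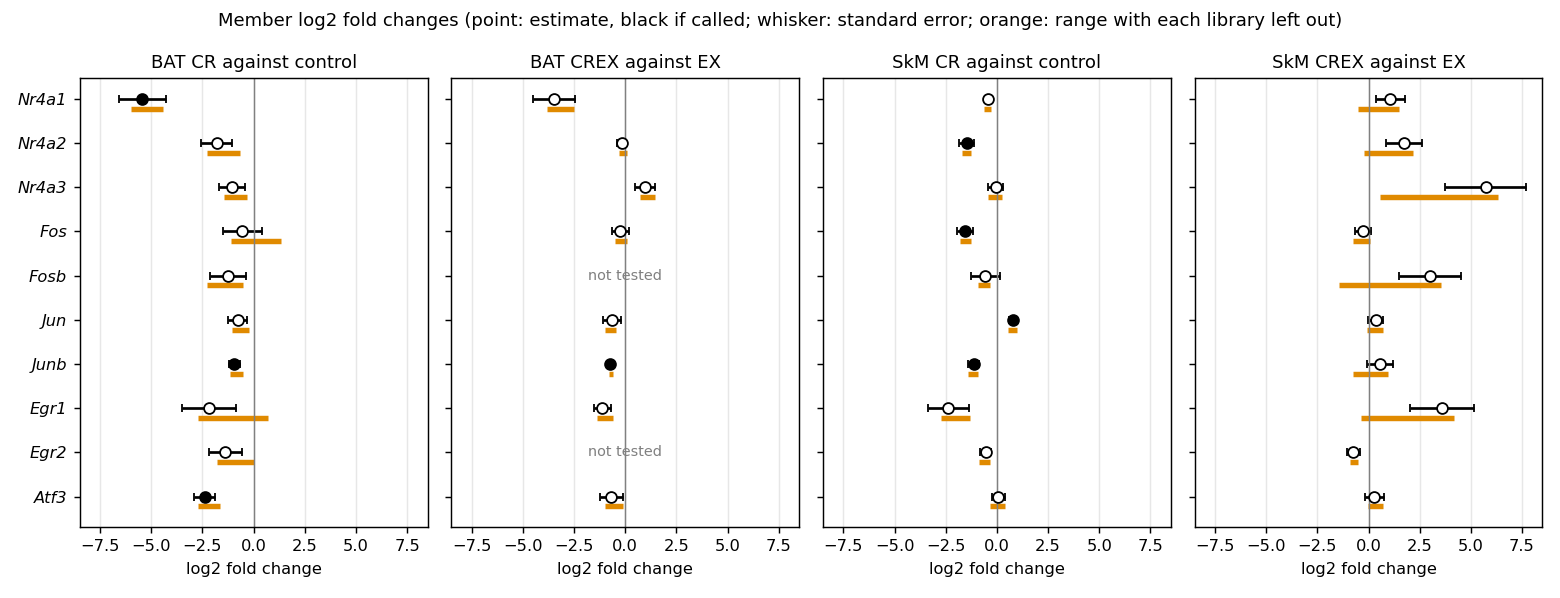
Log2 fold changes of the members in both tissues, for CR in sedentary mice and for CREX relative to EX. Points are edgeR estimates (filled when called), whiskers are standard errors, and orange lines span the estimates with each library left out in turn. The range of Nr4a3 for CREX against EX in SkM runs from 0.58 to 6.30, while that of Nr4a1 for CR in BAT stays at or below -4.44.

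Between CREX and EX in SkM, edgeR called none of the 10 members, against 8.87% of 13112 genes. With edgeR 1 member had an unadjusted p under 0.05, as 32.3% of genes did. DESeq2 called no member either, but it gave Nr4a3 no adjusted p, so Nr4a3 could not be called there. Nr4a3 was at 2.25, 2.83 and 264 CPM in CREX and at 2.31, 2.17, 0.768 and 1.54 CPM in EX, giving a log2 fold change of 5.73 with a SE of 1.99 (edgeR adjusted p = 0.116). Without CREX replicate 3 the value was 0.58 (edgeR adjusted p = 0.364). Egr1 (3.59), Fosb (2.99), Nr4a2 (1.74), Nr4a1 (1.07) and Junb (0.56) likewise had positive values that turned to -0.38, -1.44, -0.21, -0.50 and -0.76 without that library. Of these, Junb was then called (edgeR adjusted p = 0.0272), at 4.62 and 4.11 CPM in the remaining CREX libraries against 7.60, 6.83, 6.91 and 8.06 CPM in EX. With all libraries 8 of the 10 members were higher in CREX, and without CREX replicate 3, 7 were lower. The median of the members was 0.81 with it and -0.44 without it, those of all genes staying at 0.0026 and -0.0022. Endothelial markers summed to 261 to 325 CPM in EX and 118 to 236 CPM in CREX, and T and B cell markers to 0.317 to 0.745 and 0.159 to 0.208 CPM. Of the 8 T and B cell markers, 2 were at 0 in EX and 4 in CREX. The part of both lists was not tested.

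Training alone in SkM gave no call among the 10 members with edgeR, against 0.0775% of 12907 genes. An unadjusted p under 0.05 was found for 5 members and 6.85% of genes, and DESeq2 called 2 members and 49 of 21427 genes. Junb was at 7.60, 6.83, 6.91 and 8.06 CPM in EX, below all controls at 10.8, 15.5, 21.2 and 12.1 CPM (-1.02, SE 0.18, edgeR adjusted p = 0.0782, DESeq2 adjusted p = 2.0e-04). Nr4a1 was at 143, 152, 160.1 and 168 CPM in EX, also below all controls (-0.36, SE 0.10, edgeR adjusted p = 0.311). The share of all genes whose EX libraries lay below all controls was 2.21%. Fos was at 3.80, 2.80, 2.03 and 2.42 CPM in EX against 2.76 to 9.86 CPM in control (-1.25, SE 0.36, edgeR adjusted p = 0.399, DESeq2 adjusted p = 0.0242). Nr4a2 (-1.002) and Nr4a3 (-0.95) were the remaining members with an unadjusted p under 0.05. Without control replicate 1, Fos (edgeR adjusted p = 0.0349) and Junb (0.0271) were called. Brown adipocyte markers, 1 of them at 0 in each group, summed to 567 to 628 CPM in control and 469 to 563 CPM in EX. Muscle fibre and satellite cell sums overlapped, but their mean log2(CPM + 1) was higher in EX without overlap. It was 12.83 to 12.97 in control and 12.99 to 13.16 in EX for muscle fibre markers. For satellite cell markers it was 1.97 to 2.07 and 2.11 to 2.26. The part of these lists was not tested. Between CREX and CR, edgeR and DESeq2 called none of the 9 members tested, none had an unadjusted p under 0.05 (3.65% of genes did), and edgeR called no gene (0%). Of the largest values there, Nr4a3 (4.84), Egr1 (3.73) and Nr4a2 (2.21) were -0.30, -0.22 and 0.28 without CREX replicate 3.

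The median of Junb ran from 9.09 CPM in control through 7.60 in EX and 5.79 in CR to 5.03 CPM in CREX in BAT, and from 13.8 through 7.26 and 6.11 to 4.62 CPM in the same order in SkM. In BAT the ranges of control and EX overlapped and the others did not. In SkM the ranges of EX and CR overlapped, and that of control stood above both. The CREX range overlapped the other groups only through CREX replicate 3, at 23.5 CPM. The remaining CREX libraries, at 4.62 and 4.11 CPM, lay below every EX, CR and control library. The comparisons of a tissue share libraries, so these orders are not independent of each other.

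Whether the effect of CR depended on training was tested as an interaction within each tissue. For no member and no gene did edgeR pass the adjusted threshold (0% of 13922 genes in BAT and 0% of 13610 in SkM), while 1 member in BAT (5.75% of genes) and 4 in SkM (4.92% of genes) had an unadjusted p under 0.05 and DESeq2 called no member. All interaction values of the members in BAT were positive with all libraries, and without control replicate 2 those of Egr1 (-1.84), Fos (-1.59), Egr2 (-0.63), Fosb (-0.59), Jun (-0.42) and Junb (-0.24) were negative. The 4 members in SkM were Egr1 (5.99), Nr4a3 (5.83), Nr4a2 (3.24) and Junb (1.71), and without CREX replicate 3 their values were 2.0, 0.65, 1.28 and 0.39.

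The effect of CR differed between the tissues for 2 members, against 7.58% of 14369 genes. For Nr4a1 the log2 fold change in BAT minus that in SkM was -4.99 (SE 1.04, edgeR adjusted p = 0.0178), and it passed with each of 14 libraries left out (edgeR adjusted p at most 0.0420). With the replicate number as a block it did not pass (0.0799), and neither did Atf3 (0.118), and the sources do not say whether libraries of the same number in BAT and SkM came from the same mouse. For Atf3 the difference was -2.43 (SE 0.66, edgeR adjusted p = 0.0422), and it passed with 3 of the 14 libraries left out, BAT CR replicate 3, BAT control replicate 1 and SkM CR replicate 2, and was lost without any other, with an edgeR adjusted p of up to 0.0975 without BAT control replicate 2. Jun, with -1.56, had an edgeR adjusted p of 0.0843 and passed without BAT control replicate 1 (0.0416) and with DESeq2 (DESeq2 adjusted p = 0.0423). For CREX against EX no member differed between the tissues with edgeR or DESeq2, 3 had an unadjusted p under 0.05 (22.2% of genes did), and edgeR called 5.58% of 14410 genes. Nr4a1 had -4.53 there (SE 1.29, edgeR adjusted p = 0.0636) and passed without BAT EX replicate 1 (0.0456), BAT EX replicate 4 (0.0429) or SkM CREX replicate 1 (0.0326). Egr1 passed without SkM CREX replicate 1 as well (edgeR adjusted p = 0.0310), and without SkM CREX replicate 3 the value of Nr4a1 was -2.97, that of Egr1 -0.75 and that of Nr4a3 0.40 in place of -4.73.

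Other immediate early genes, 44 from a list of the wider response, were read beside the members. In BAT under CR, 37 were tested, 11 fell and none rose, against 6.86% of all genes called lower and 3.87% higher, with a median log2 fold change of -0.72 (0.0045 for all genes). The smallest p-values belonged to Jund, a constitutive AP-1 subunit (43.3 ± 6.06 CPM (SD, n = 3) in control and 23.2 ± 2.52 (SD, n = 4) in CR, log2 fold change -0.90), the Krüppel-like factors Klf4 (-1.83) and Klf2 (-1.17), and Arc, a neuronal immediate early gene that was low here (1.41 ± 0.427 CPM (SD, n = 3) in control and 0.341 ± 0.103 (SD, n = 4) in CR, -2.04). Without control replicate 2, 9 of 37 fell, against 7.36% of all genes called in either direction. Rgs2, the most abundant gene of the list in BAT per kilobase, averaged 180.4 CPM, and Gadd45g, its counterpart in SkM, 70.8 CPM.

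In trained mice the same list showed 1 call among 37 genes in BAT, against 4.48% of all genes, the endothelial immediate early gene Apold1, which was 1.09 ± 0.301 CPM in CREX and 2.68 ± 1.35 CPM in EX (SD, n = 4 each, log2 fold change -1.29, edgeR adjusted p = 0.0464). In SkM under CR, 5 of 39 rose and 5 fell, against 4.27% of all genes called higher and 5.32% lower. Myc, a growth-promoting transcription factor, rose from 2.32 ± 0.216 CPM (SD, n = 4) to 8.35 ± 2.84 CPM (SD, n = 3), the DNA damage-inducible Gadd45a (1.01) and the circadian output repressor Nfil3 (1.93) rose as well on the log2 scale, and Apold1 fell from 5.51 ± 1.41 to 1.74 ± 0.614 CPM. Between CREX and EX in SkM, where 8.87% of all genes were called, 3 of 38 were: Nfil3 (2.55) and Gadd45a (0.71) rose and the MAP kinase phosphatase Dusp6 (-0.84) fell. For training alone in SkM, Ppp1r15a, a stress-induced phosphatase subunit, fell by 0.72 on the log2 scale (edgeR adjusted p = 0.0099). The list had no call in the other training comparisons.

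Upstream of the members, 23 genes of the CREB and SRF pathway were tested in each comparison. None was called for CR in either tissue or for CREX against EX in BAT, and the single call for CREX against EX in SkM was the SRF coactivator Mkl1 (-0.70, SE 0.18, edgeR adjusted p = 0.0364), a list with no call without CREX replicate 3. The catalytic subunit of protein kinase A, Prkaca, the most abundant gene of this list per kilobase, averaged 201 CPM in BAT and 80.2 CPM in SkM. Among the partners and repressors of AP-1 and EGR proteins, 10 of which were tested, Nab2, a corepressor of EGR factors that is itself their target, fell under CR in both tissues. It averaged 2.02 ± 0.310 CPM (SD, n = 4) in CR and 4.98 ± 1.58 (SD, n = 3) in control BAT (-1.30, edgeR adjusted p = 0.0032), and 2.76 ± 0.320 (SD, n = 3) and 4.97 ± 0.539 CPM (SD, n = 4) in SkM (-0.84, edgeR adjusted p = 0.0067). Atf4, the most abundant gene of the list per kilobase, averaged 52.5 CPM in BAT and 132 CPM in SkM. Nab2 was the single call of this list in either comparison, and the list had none for CREX against EX or for training.

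Across the 15 BAT libraries, Pearson's r of log2 CPM between members was positive for all 45 pairs with a median of 0.56, the closest pair being Nr4a1 and Atf3 (r = 0.87). Without control replicate 2, 33 of 45 pairs were positive and the median was 0.23, with Nr4a1 and Atf3 still closest (r = 0.80). Across the 14 SkM libraries 33 of 45 pairs were positive (median 0.40), and without CREX replicate 3, 35 of 45 (median 0.30). Over all 14 SkM libraries Nr4a1 and Jun ran in opposite directions (r = -0.70), CREX replicate 3 holding the highest Nr4a1 and the lowest Jun. Without that library the most negative pair was Jun and Egr2 (r = -0.65). These values describe libraries that share groups and preparation, and they carry no test.

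The genes most like the mean standardized level of the members over the 15 BAT libraries were Egr3 (r = 0.89), Ets2 (r = 0.89), Fbf1 (r = 0.85), Arntl2 (r = 0.83) and Rnf213 (r = 0.82). On deviations from the group means they were Ets2 (r = 0.88), Tas1r3 (r = 0.87), Egr3 (r = 0.85), Arntl2 (r = 0.83) and Irf4 (r = 0.82). Over the 14 SkM libraries they were Tnfrsf12a (r = 0.85), Fam134b (r = 0.84), Xirp1 (r = 0.82), Cyr61 (r = 0.82) and Hsp90aa1 (r = 0.81), and on deviations Ptp4a1 (r = 0.91), Rcc2 (r = 0.89), Fam46c (r = 0.89), Rrad (r = 0.88) and Cbarp (r = 0.88). Without BAT control replicate 2, or SkM CREX replicate 3, none of the first 5 of each ranking stayed among the first 5.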

How the data were processed

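RNA of BAT and gastrocnemius was sequenced as paired reads of 150 bases. Per the labels and the study's methods, the authors trimmed reads with trim-galore 0.6.7, aligned them to mm10 with STAR 2.7.10a and quantified genes with RSEM (version 1.2.28 in the submitters' processing notes, 2.0.1 in the methods). The values deposited are RSEM expected counts per symbol, not normalized, of which 6.11% were not whole, and they were rounded here. The annotation is not given in the sources used here. Of 24770 symbols, 27 were turned into dates and 4 rows share a symbol, none a gene named here. Depth and the level of 3 counts are given in the report. Standard errors and standard deviations include the spread between libraries.

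Each comparison was fitted on its 2 groups with edgeR 4.0.16 (R 4.3.3): TMM, filterByExpr, robust quasi-likelihood test, Benjamini-Hochberg adjustment over all genes tested. Calls needed an adjusted p below 0.05 together with more than 1.5-fold change, or the adjusted p alone for interactions and tissue differences. The standard error is the log2 fold change (log2 ratio) over the square root of F. Interactions used 1 fit on all groups of a tissue, and tissue differences 1 fit on 4 groups of both tissues, in which libraries of different tissues were treated as independent. Log2 CPM for spread and correlation used a prior count of 2, and marker scores log2(CPM + 1). The tests were run on simulated data first. Exon lengths and gene positions came from GENCODE M21 (GRCm38), promoters from RefSeq (GRCm38.p6). Tables were handled with Python 3.11.15 and pandas 2.3.3, figures with matplotlib 3.10.9.

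Alternatives were DESeq2 1.42.0, scaling by RLE, all genes kept without the low-count filter, 1 fit on all groups, the replicate block, a muscle marker score as covariate in BAT, no fold minimum and each library left out. No libraries agreed within sampling noise (chi-square per degree of freedom at least 6.20). Members and lists were chosen with earlier results of these data known. From each list, up to 4 called genes with the smallest p and the most abundant gene were named, and the 5 genes most like the members. A gene that the rule names is not reported here.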

Additional observations from a re-analysis of the deposited data

Results flagged for a closer look

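Jun in the BAT library CREX replicate 3 was at 23.9 CPM, while the other 3 CREX libraries lay between 11.1 and 13.1 CPM. It was the single sample past Dixon's critical value among 50 groups of 4 libraries, and chance passes about 5% of such groups. This library also held the most Ckm of the BAT libraries, at 806 CPM, and the part of muscle RNA in its Jun value was not tested.

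The effect of CR on Nr4a1 differed between BAT and SkM by -4.99 on the log2 scale (edgeR adjusted p = 0.0178), all BAT controls lying above all CR libraries while the SkM groups overlapped. For Atf3 the difference was -2.43 (edgeR adjusted p = 0.0422). Without BAT control replicate 2 the values were -3.96 (edgeR adjusted p = 0.0420) for Nr4a1 and -1.65 (0.0975) for Atf3. With the replicate number as a block neither passed (edgeR adjusted p = 0.0799 for Nr4a1 and 0.118 for Atf3).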

How the results depend on the processing

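Of 390 values under alternatives for the 26 pairs of member and comparison with an unadjusted p under 0.05, interactions not counted, 312 kept their direction and side of the threshold, 59 lost the call, 18 gained one and 1 changed sign. Over all 115 pairs tested, called or not, 93 of 1687 values changed sign, in 50 pairs, and 31 of these values were those without BAT control replicate 2 or SkM CREX replicate 3. Among the 26 pairs the sign changed for Nr4a3 in the tissue difference of the CREX against EX effect, at 0.40 without SkM CREX replicate 3, the range being -5.31 to 0.40 when each library was left out.

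For CR against control in BAT, 3 members were called, and 1 was with no filter on low counts, 1 with the replicate block and 1 with the muscle score as covariate, with 0 to 3 when each library was left out. Over all genes, these 3 settings called 1452 of 21557, 929 of 13323 and 1570 of 13323. For CREX against EX in BAT, DESeq2 called 3 members and the muscle covariate 2, against 816 of 22138 and 699 of 13251 genes, and leaving out libraries gave 0 to 1. For EX against control in BAT, DESeq2 and the replicate block called 1 member each, against 36 of 21917 and 1 of 13407 genes. For CREX against CR in BAT DESeq2 called 1 member, against 30 of 21730 genes. For CR against control in SkM, 4 were called, 2 with no filter, 1 in the fit on all groups and 1 with the replicate block, with 1 to 3 when libraries were left out. The same settings called 1495 of 21442, 1163 of 13610 and 1331 of 13173 genes. For CREX against EX in SkM, the fit on all groups called 1 member, against 1610 of 13610 genes, and leaving out libraries gave 0 to 1. For EX against control in SkM, DESeq2 called 2, against 49 of 21427 genes, and leaving out libraries gave 0 to 2. For the tissue difference of the CR effect, 2 members were called, 1 with no filter and 0 with the replicate block, against 855 of 23396 and 657 of 14369 genes. When libraries were left out the range was 1 to 3 members, and for the tissue difference of CREX against EX it was 0 to 2. The causes were not tested. The block changed no call of CREX against EX in either tissue.

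Within a tissue, same-numbered libraries did not deviate together in every pair of any comparison (mean correlations of their deviations from -0.27 to 0.14). Between BAT and SkM, the 13 same-numbered pairs of a group had correlations from -0.17 to 0.093, a check made after seeing the data, and it does not show whether they came from different mice. With the replicate block, the edgeR adjusted p in BAT under CR was 0.143 for Nr4a1, 0.117 for Junb and 0.0079 for Atf3, and that of Nr4a3 for EX against control in BAT was 0.0086. In SkM under CR it was 0.0116 for Nr4a2, 0.154 for Fos, 0.0542 for Jun and 0.0828 for Junb, and for the tissue difference of the CR effect 0.0799 for Nr4a1 and 0.118 for Atf3.

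Counts over all genes moved too. The block called 929 in place of 1430 for CR in BAT, 51 in place of 1 for CREX against CR in BAT, 646 in place of 1163 for CREX against EX in SkM, 1 in place of 10 for EX in SkM and 657 in place of 1089 for the tissue difference of CR. DESeq2 called 36 in place of 0 for EX in BAT, 30 in place of 1 for CREX against CR in BAT, 49 in place of 10 for EX and 36 in place of 0 for CREX against CR in SkM, 4 and 1 in place of 0 for the interactions in BAT and SkM, and 1360 in place of 804 for the tissue difference of CREX against EX. With no filter, 7 genes were called for EX in BAT, 3 for CREX against CR in BAT, 31 for EX in SkM and 1 for the BAT interaction. Without SkM CREX replicate 1, 2570 genes were called for CREX against EX in SkM, 99 for CREX against CR in SkM, 182 for the SkM interaction and 2237 for the tissue difference of CREX against EX. Fosb and Egr2, with as few as 1 and 3 counts a library in BAT, are limited most by depth.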

Other observations

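Of 14 adrenergic and cAMP response genes of brown fat tested in BAT under CR, 2 fell, against 6.86% of all genes called lower, Ucp1 (2101 ± 333 CPM in CR, n = 4, and 4264 ± 458 CPM in control, n = 3, SD) and the cAMP-degrading Pde4b (1.74 ± 0.507 and 7.87 ± 3.55 CPM), and the median log2 fold change was -0.55. Without BAT control replicate 2, 3 of the 14 fell, against 7.36% of all genes called in either direction. For CREX against EX in BAT, 2 of 14 fell and 1 rose, against 4.48% of all genes called in either direction. Ucp1 (-0.99) and the beta-3 adrenergic receptor Adrb3 (-0.71) fell and Irf4 (1.68), a fasting-induced factor of brown fat, rose. In SkM under CR, 3 of 10 tested rose, Pde3b (1.94) and Irf4 (1.95) among them, and 1 fell, Dio2 (-1.51). Of all genes, 9.6% were called there in either direction. For CREX against EX in SkM, 2 of 10 tested rose, Pde4b (0.79) and Pde4d (0.95), and 1 fell, Dio2 (-2.32). The share of all genes called was 8.87%. Without CREX replicate 3, 1 of 11 genes of the list rose and none fell, against 4.5% of all genes called.

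Among 12 muscle metabolism genes linked to NR4A receptors, the gluconeogenic enzyme Fbp2 rose in all 4 comparisons of restricted with unrestricted mice. Its log2 fold change was 1.25 for CR and 1.01 for CREX against EX in BAT, and 1.01 and 0.61 in SkM. Lpin1, which encodes a phosphatidate phosphatase, rose in BAT (0.66 and 0.69), and the uncoupling protein gene Ucp3 rose in SkM (0.84 and 1.19). Muscle fibre markers in BAT summed to 3.22 to 631 CPM in control and 18.4 to 1344 CPM in CR. They summed to 6.48 to 3706 CPM in EX and 954 to 5836 CPM in CREX. The part of muscle RNA in the BAT values of this list was not tested. The most abundant genes of this list per kilobase were Pdk4 in BAT (1133 CPM) and Pygm in SkM (8626.5 CPM). Prkag3 rose in SkM under CR (0.60). Of this list 2 of 11 rose under CR in BAT, against 3.87% of all genes called higher, and 1 of 11 without BAT control replicate 2. In SkM under CR 3 of 12 rose, against 4.27% of all genes. For CREX against EX, 2 of 12 rose in BAT and 2 of 12 in SkM. The shares of all genes called in either direction were 4.48% and 8.87%. Ucp1 and Dio2 are also brown adipocyte markers, and the lists were chosen with earlier results of these data known.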
